A study of Mus musculus with 10 samples.

Results

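Iron handling in muscle was examined through 10 genes for the uptake, storage and export of iron, namely Tfrc, Trf, Steap3, Slc11a2, Fth1, Ftl1, Slc40a1, Heph, Ireb2 and Aco1, among 37947 gene symbols in the table. These genes were picked by function, with earlier results of these libraries in view, and for each gene the transcript with the highest average level across the 10 libraries was read. They are listed as 44 transcripts of 92251. RNA sequencing of the gastrocnemius, a calf muscle, was compared between 5 young male C57BL/6 mice aged 6 months and 5 aged ones of 24 months, with 1 library for each mouse. The mice carried no engineered allele and received no treatment, so age is the only difference that the labels give. Levels are given as log2 FPKM, in which FPKM is a fragment count scaled to transcript length and library size, and any FPKM up to 1 is listed as 0.

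Iron circulates bound to transferrin (Trf), which docks on the transferrin receptor (Tfrc) and is drawn into the cell. In the endosome the reductase Steap3 converts the iron to its ferrous form, and the transporter Slc11a2 (DMT1) releases it to the cytoplasm. Surplus iron is stored in a shell of heavy (Fth1) and light (Ftl1) ferritin subunits, or leaves through ferroportin (Slc40a1) with the help of a ferroxidase such as hephaestin (Heph). Muscle holds much of its iron in myoglobin and in the mitochondrial respiratory chain. The RNA-binding proteins IRP1 (Aco1) and IRP2 (Ireb2) set the balance by gripping a short hairpin, the iron-responsive element, when iron is scarce. Bound in a 5′ UTR they block translation, and bound in the 3′ UTR of Tfrc they protect the mRNA from decay.

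The hairpins are shown because they tie uptake, storage and export to the same regulators. The UTRs of GENCODE transcripts (GRCm38) were searched on the sense strand for an unpaired C, 5 paired bases, a loop CAGTGN, the 5 partners, and at least 4 pairs of 5 below the C. The motif was found in 4 of the 10 iron genes, on the side of the coding sequence that is textbook knowledge for each. Elements that depart from this pattern would be missed, so the counts are of this motif alone. Among 22527 coding genes, 18 held it (0.0799%), including Alas2 of heme synthesis, whereas the letters CAGTG alone occur in a UTR of 75.8% of genes. The sequences are printed 5′ to 3′ on the strand of the gene, with the loop of the hairpin in capitals.
Fth1 5′ UTR, chr19:9982733-9982759, plus strand: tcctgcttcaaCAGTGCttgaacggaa
Ftl1 5′ UTR, chr7:45459780-45459806, minus strand: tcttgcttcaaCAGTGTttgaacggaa
Slc40a1 5′ UTR, chr1:45925466-45925492, minus strand: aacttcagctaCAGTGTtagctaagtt
Tfrc 3′ UTR, chr16:32631220-32631246, plus strand: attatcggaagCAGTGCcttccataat
Tfrc 3′ UTR, chr16:32631599-32631625, plus strand: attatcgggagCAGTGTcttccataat
Tfrc 3′ UTR, chr16:32631664-32631690, plus strand: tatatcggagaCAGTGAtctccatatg
Tfrc 3′ UTR, chr16:32631711-32631737, plus strand: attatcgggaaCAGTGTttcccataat
Fth1, Ftl1 and Slc40a1 each had 1 hairpin before the coding sequence, and Tfrc had 4 after it. A match to these letters is a description of the sequence and not a measurement of binding.

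The depth recovered from the values was 19886368 to 34554354 reads a library, so that a 1 kb transcript at an FPKM of 1 had 19.9 to 34.6 reads. The 2 libraries numbered 3 were the deepest of their groups, at 34554354 (young) and 31783515 (aged) reads, and had values above 0 for the fewest transcripts, 35024 and 29878 against 38855 to 43296 elsewhere. Both also had few reads on 5′ transcripts of iron genes for their reads on 3′ ones, with values given beside Tfrc and Trf. All 8 muscle fiber markers, such as Ckm and Myh4, were detected with a summed level of 35790 to 53670 FPKM, and 0 had an unadjusted limma p under 0.05. Of 8 macrophage markers, 5 were tested and all 5 were higher on average in aged muscle, with unadjusted p under 0.05 for Cd68 and Lyz2 and a summed level of 27.7 to 121 FPKM in the aged libraries against 14.9 to 38.8 in the young. At an unadjusted p under 0.05, 1 of 5 fibroblast markers was lower (Col3a1), and 0 of 5 endothelial, 0 of 4 red blood cell and 0 of 3 adipocyte markers differed. In whole tissue, fewer cells of a type and less RNA in each cell cannot be told apart.

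Every aged library had less Tfrc than every young one, Trf was higher on average in aged muscle, and the most abundant of the genes, Fth1, differed by 0.04 on the log2 scale (95% interval -0.34 to 0.42). Of the 10 genes, 9 had values above 0 and passed the filter of a mean FPKM of at least 1. None of the 9 had an adjusted p under 0.05 (limma, Benjamini-Hochberg over 38059 transcripts), where 3 of all transcripts did (0.00788%). Unadjusted, 0 of 9 were under 0.05 in the aged higher direction, against 3.89% of all transcripts, and 0 of 9 in the aged lower direction, against 0.738%. With libraries of the same number treated as pairs, which the processing section describes, the counts became 1 higher (Trf) and 2 lower (Tfrc and Steap3), against 6.78% and 1.4% of all transcripts, and still 0 adjusted. Across the 9 genes the median difference was -0.13 on the log2 scale, with 3 higher and 6 lower in aged muscle, beside a median of 0.03 over all transcripts tested.

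**Figure D1:**
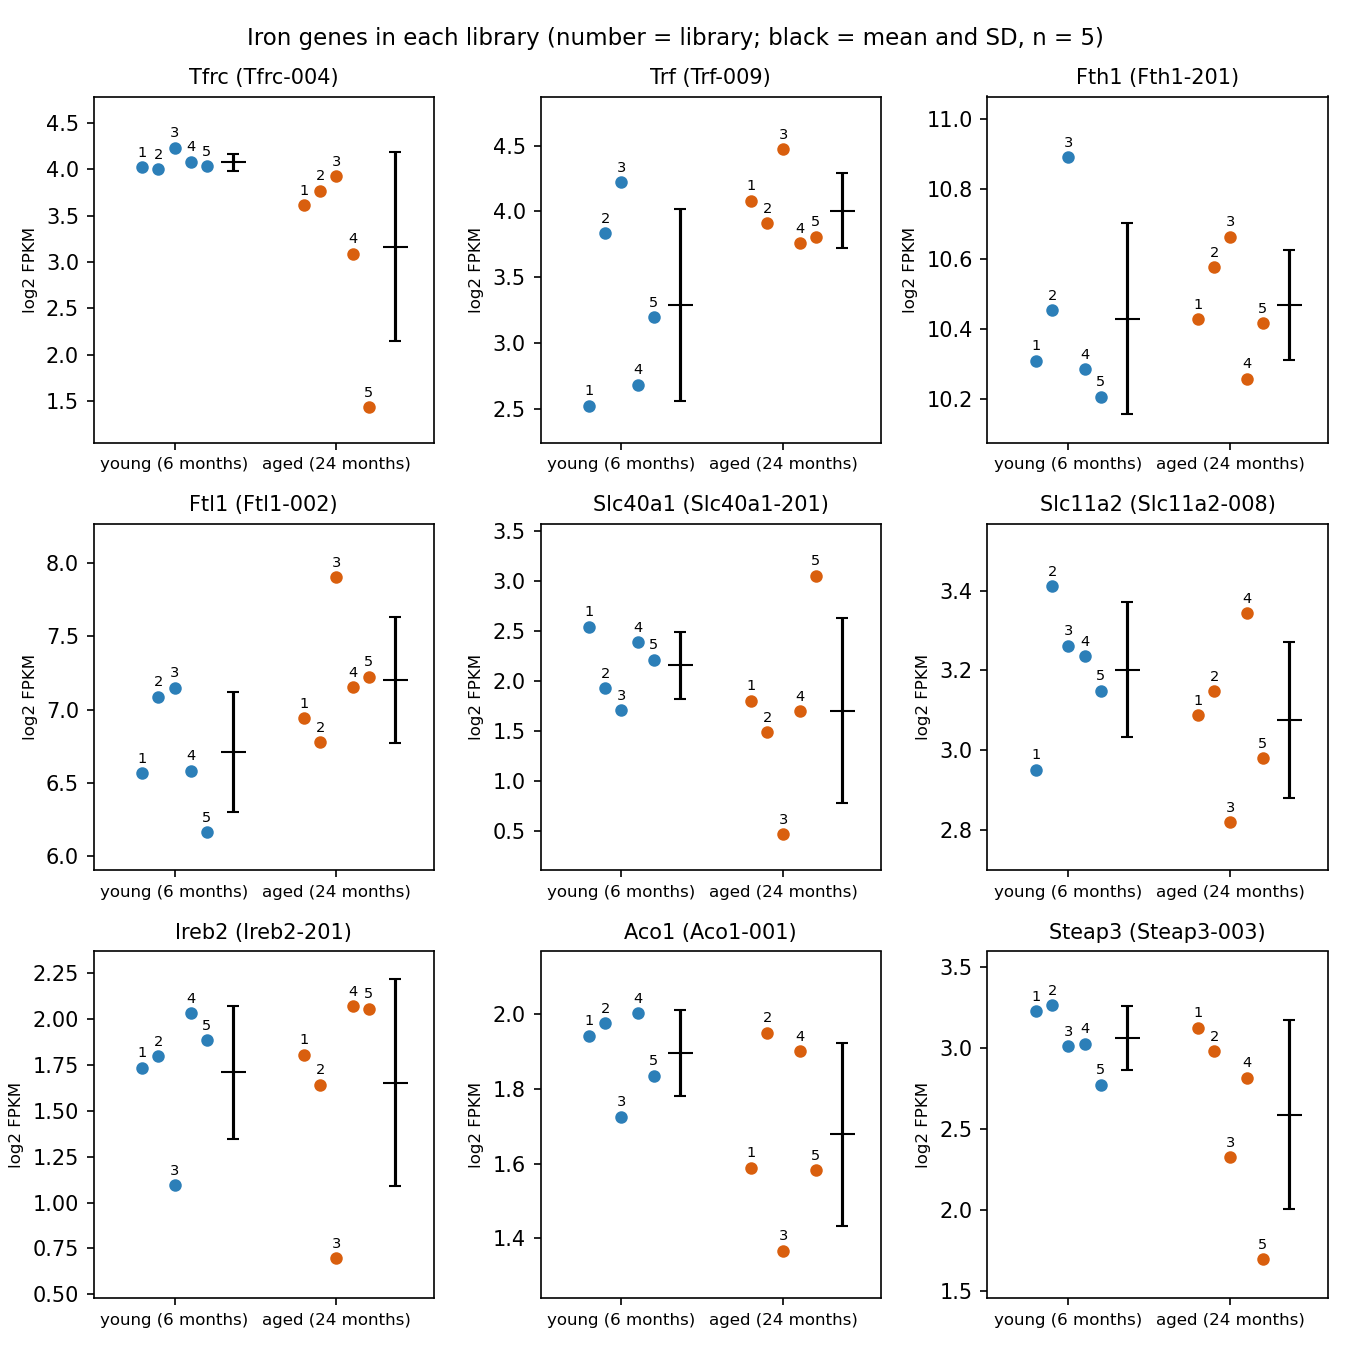
Level of each of the 9 detected iron genes in log2 FPKM (y axis, a separate range for each panel) in 5 young and 5 aged libraries, each point numbered by its library, with the mean and SD in black. Tfrc is at most 3.92 in the aged libraries and at least 4.00 in the young ones, while the other genes overlap between the ages.

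Ferritin heavy chain stood far above the rest of the iron genes in level. Mean log2 FPKM over all libraries was 10.45 for Fth1, 6.96 for Ftl1, 3.65 for Trf, 3.62 for Tfrc, 3.14 for Slc11a2, 2.82 for Steap3, 1.93 for Slc40a1, 1.79 for Aco1, 1.68 for Ireb2 and 0 for Heph. Fth1 exceeded Ftl1, and Ftl1 exceeded Trf, in 10 of 10 libraries. Further down the order was less firm, as Trf was above Tfrc in 5 of 10 libraries, Slc40a1 above Aco1 in 5, and Aco1 above Ireb2 in 5. Tfrc was above Slc11a2 in 8 libraries, Slc11a2 above Steap3 in 8, and Steap3 above Slc40a1 in 9. Fth1 was at the percentile 99.6 of the genes above 0 in at least 1 library, and Ireb2 at 43.4.

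Uptake begins with Tfrc (chromosome 16, 32608920 to 32632794, plus strand, GRCm38), and its read-out was the transcript Tfrc-004. By its length of 3527 bases this matched a GENCODE retained-intron transcript of 5 exons at the 3′ end of the gene, which contains all 4 hairpins printed for Tfrc. Young libraries 1 to 5 had log2 FPKM of 4.02, 4.00, 4.23, 4.08 and 4.03, and aged libraries 1 to 5 had 3.61, 3.77, 3.92, 3.09 and 1.44. All 5 aged libraries were below all 5 young ones, and aged 5 was far below the other aged libraries. Behind these values were 1149 to 2288 reads in the young group and 193 to 1700 in the aged group.

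Group means for Tfrc were 4.07 ± 0.09 for young and 3.17 ± 1.02 for aged mice (SD, n = 5 each), which differed by -0.91 on the log2 scale (SE 0.417, 95% interval -1.83 to 0.02), or a 1.88-fold lower geometric mean. The limma p was 0.0536 unadjusted and 1.00 adjusted by Benjamini-Hochberg, and the two-sided exact permutation p was 0.00794, the smallest that 5 libraries against 5 can give. Of the 9 iron genes, 1 (Tfrc) had every aged library below every young one, as did 0.292% of all transcripts tested. A log2 difference below -0.5 was found for 1 of 9 (Tfrc), against 5.01% of transcripts, and a difference above 0.5 for 1 of 9 (Trf), against 5.84%. The study listed Tfrc as a predicted miRNA target after a cutoff of 0.5 on the log2 difference in these same libraries, so its direction is not independent evidence.

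The size of the Tfrc difference depended on 1 mouse. Without aged 5 the difference was -0.48 (SE 0.186, unadjusted limma p 0.0305), with all 4 remaining aged libraries still below the young ones. Without both libraries numbered 3 it was -1.06 (SE 0.448, p 0.0427 by limma, unadjusted). With pairs by library number it was -0.91 (SE 0.362), and the unadjusted limma p became 0.0418 and the adjusted p 0.600. The 2 groups overlapped under quantile normalization, where the difference was -1.0, and under median-of-ratios scaling, where it was -0.95.

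All 6 Tfrc transcripts had a lower mean in aged muscle, with differences of -1.01 to -0.75, although they share reads and the groups overlapped for 4 of the 6. The full-length coding transcript Tfrc-001 (4890 bases, 19 exons) had 3.92, 3.89, 3.81, 3.99 and 3.99 in young libraries 1 to 5 and 3.40, 3.60, 3.46, 3.30 and 1.24 in aged libraries 1 to 5. Its groups did not overlap either, and the difference was -0.92 (SE 0.407, 95% interval -1.82 to -0.02, unadjusted limma p 0.0469). The 5′ transcript Tfrc-002, of 13 exons, told the libraries apart in another way. Young 3 had 79 reads on it, which is 3.45 for each 100 on the 3′ transcript Tfrc-004. The figure was 59.2 in aged 4 and 18.9 to 32.3 in the other 7 libraries with a value above 0. Aged 3 was listed at 0, an FPKM up to 1, so its reads on Tfrc-002 are not known. Aged 4 had 3.25 on Tfrc-002, above 4 of the 5 young libraries. In aged 5, which had 40 reads on Tfrc-002 and 193 on Tfrc-004, the figure was 20.7.

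**Figure D2:**
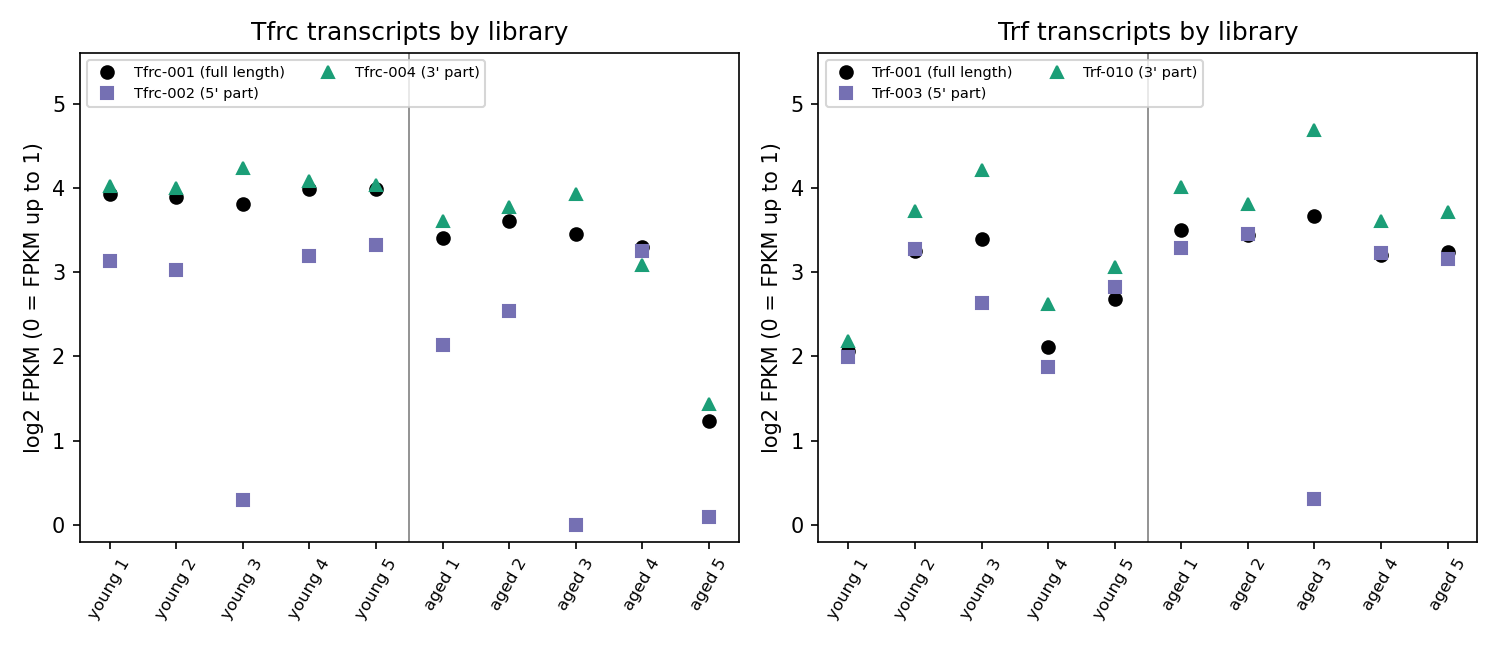
Log2 FPKM (y axis) of the full-length, 5′ and 3′ transcripts of Tfrc (left) and Trf (right) in each of the 10 libraries (x axis), where 0 stands for any FPKM up to 1. The 5′ transcript drops far below the 3′ transcript in aged 3 for both genes and in young 3 for Tfrc, and all 3 Tfrc transcripts are low together in aged 5.

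Among the miRNAs for which the study listed Tfrc as a target, 2 were in the RefSeq miRNA table. The mature sequences are shown with the seed, bases 2 to 8, in capitals, followed by the site in the Tfrc 3′ UTR with the bases that pair with the seed in capitals.
mmu-miR-34a-5p: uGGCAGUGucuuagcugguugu
mmu-miR-152-3p: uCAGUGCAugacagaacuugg
Tfrc 3′ UTR, chr16:32631070-32631091, plus strand: acttgaaaagaacaCACTGCCa
The letters CACTGCC, the seed match of miR-34a, occurred 1 time in the 2458 bases of the Tfrc 3′ UTR, upstream of the hairpins, and in the 3′ UTR of 17.1% of 21193 genes. The match of miR-152, TGCACTG, occurred 0 times there and in 15.2% of genes. Only the full match to bases 2 to 8 was searched, in the 3′ UTR of a single GENCODE transcript of Tfrc. The study took its targets from TargetScan, so the 0 does not decide whether that listing holds. The miRNA reads of the study were not used here.

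Trf (chromosome 9, 103204001 to 103230444, minus strand), the carrier protein best known as a product of the liver, had an SD of 0.73 among young mice and 0.29 among aged ones. Young libraries 1 to 5 had log2 FPKM of 2.52, 3.83, 4.22, 2.68 and 3.19, and aged libraries 1 to 5 had 4.08, 3.91, 4.47, 3.76 and 3.81, on the transcript Trf-009. The aged libraries lay close together at the upper end of the young range, and the groups overlapped through young 2 and young 3. Means were 3.29 ± 0.73 (SD, n = 5) and 4.01 ± 0.29 (SD, n = 5), a difference of 0.71 (SE 0.329, 95% interval -0.02 to 1.45) or 1.64-fold. The limma p was 0.0541 unadjusted and 1.00 adjusted, and the two-sided exact permutation p was 0.103. Aged was above young in all 5 pairs of the same number, and with the pairs the difference had an SE of 0.240 and an unadjusted limma p of 0.0217 (adjusted 0.562).

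All 8 Trf transcripts had a higher mean in aged muscle, by 0.05 to 0.80. Full-length Trf-001 (2571 bases) was 2.70 ± 0.62 (SD) in young and 3.41 ± 0.19 (SD) in aged libraries, a difference of 0.71 (SE 0.280, unadjusted limma p 0.0289). The lowest differences belonged to the 5′ transcripts, Trf-006 and Trf-003, which were at 0.54 and 0.30 in aged 3 and at 2.97 or above in every other aged library. For each 100 reads on the 3′ transcript Trf-010, Trf-003 had 5.07 in aged 3 and 35.8 in young 3, against 63.5 to 92.8 in the remaining libraries. Without both libraries numbered 3, the Trf difference was 0.83 (SE 0.266, unadjusted limma p 0.0124). The exons of Trf overlap those of Gm20425 on the same strand, so reads of the 2 genes could not be told apart by position.

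Markers of fat and nerve varied between the young libraries too. Summed adipocyte markers were 24.6, 58.0, 103.8, 13.6 and 32.4 FPKM in young libraries 1 to 5, with young 2 and young 3 the highest for them as for Trf, and 21.2 to 81.5 in the aged. Summed Schwann cell markers were 20.4, 76.8, 137, 59.9 and 27.1 FPKM in young libraries 1 to 5 and 34.8 to 233 in the aged. Of the 4 adipocyte markers, Adipoq, Plin1 and Cfd were tested and Lep was listed at 0 in 6 libraries, and of the 5 Schwann cell markers S100b alone was not tested, at 0 in 7. Their part in the Trf values was not tested.

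Steap3 (chromosome 1, 120190757 to 120272705, minus strand), the endosomal reductase, was lower on average in aged muscle. It was lower in all 5 pairs of the same number, a pairing taken from the data. On transcript Steap3-003, young libraries 1 to 5 had 3.23, 3.26, 3.01, 3.02 and 2.77, and aged libraries 1 to 5 had 3.12, 2.98, 2.32, 2.82 and 1.69. The groups overlapped, and aged 5 was the lowest library, as it was for Tfrc. The means of 3.06 ± 0.20 (SD, n = 5) and 2.59 ± 0.58 (SD, n = 5) differed by -0.47 (SE 0.268, 95% interval -1.07 to 0.12, unadjusted limma p 0.107). With pairs the SE was 0.183 and the unadjusted limma p 0.0376 (adjusted 0.596), and without aged 5 the unpaired difference was -0.25 (SE 0.198, p 0.239 by limma). Across the 23 alternative settings that kept Steap3, the difference was -0.61 to -0.099. All 5 Steap3 transcripts had a lower mean in aged muscle, with differences of -0.81 to -0.46.

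Slc11a2 (chromosome 15, 100387898 to 100425072, minus strand), which carries ferrous iron out of the endosome, differed by -0.13 (SE 0.154) between the ages. Transcript Slc11a2-008 had 2.95 to 3.41 in the young and 2.82 to 3.34 in the aged libraries, ranges that overlapped nearly entirely. Means were 3.20 ± 0.17 (SD, n = 5) and 3.08 ± 0.20 (SD, n = 5), and the interval of the difference was -0.47 to 0.21 (limma, unadjusted p 0.430). The difference was -0.06 without aged 3 and -0.07 without young 2. Its short transcripts Slc11a2-003 to Slc11a2-006 were at 0 in aged 3 and between 1.68 and 2.43 in young 3, lower than in the other young libraries.

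Storage was led by Fth1 (chromosome 19, 9980598 to 9985098, plus strand), the ferritin subunit that oxidizes iron. Young libraries 1 to 5 had log2 FPKM of 10.31, 10.45, 10.89, 10.28 and 10.21, and aged libraries 1 to 5 had 10.43, 10.58, 10.66, 10.26 and 10.42. The ages overlapped throughout, and both libraries numbered 3 were the highest of their groups. Means were 10.43 ± 0.27 (SD, n = 5) and 10.47 ± 0.16 (SD, n = 5), a difference of 0.04 (SE 0.170, 95% interval -0.34 to 0.42, unadjusted limma p 0.819). With 20332 to 56865 reads a library, counting error was small beside the spread between mice.

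Ftl1 (chromosome 7, 45457944 to 45459884, minus strand), the light subunit that helps iron mineralize inside the shell, was higher on average in aged muscle without passing a test. Young libraries 1 to 5 had 6.57, 7.09, 7.15, 6.58 and 6.16, and aged libraries 1 to 5 had 6.94, 6.78, 7.90, 7.15 and 7.23, on transcript Ftl1-002. Aged 3 was the highest library, and young 2 and young 3 lay within the aged range. The difference between 6.71 ± 0.41 (SD, n = 5) and 7.20 ± 0.43 (SD, n = 5) was 0.49 (SE 0.260, 95% interval -0.09 to 1.07, unadjusted limma p 0.0882), and the two-sided exact permutation p was 0.0873. Without aged 3 the difference was 0.31. The coding transcript Ftl1-001 gave the same difference, 0.49, and all 5 Ftl1 transcripts had a higher mean in aged muscle, by 0.49 to 0.65. Its exons overlap the miRNA gene Gm22133 on the same strand, which is listed at up to 9.48, above the 7.90 that Ftl1 reached, and reads of the pair could not be told apart by position.

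Macrophages take up iron from old red blood cells and are rich in ferritin. Their summed markers were 37.6, 27.7, 75.0, 121 and 57.5 FPKM in aged libraries 1 to 5, in which the lowest sum, aged 2, went with the lowest aged Ftl1, but the highest, aged 4, did not go with the highest. The hemoglobin genes and Alas2 together gave 180 to 729 FPKM in the aged and 171 to 381 in the young libraries, with aged 3 and aged 4 the highest at 671 and 729. The macrophage markers Emr1 and Ptprc were listed at 0 in 9 libraries and Mrc1 in 5, and Alas2 at 0 in 8. Their part in the Ftl1 values was not tested. The ferritin copies Ftl2, Fth-ps2 and Fthl17 were listed at 0 in every library, while reads split between Fth1 or Ftl1 and unlisted pseudogenes would not be seen.

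Export was read at a low level. Slc40a1 (chromosome 1, 45908068 to 45926523, minus strand), the only known exporter of ferrous iron in mammals, had 2.54, 1.93, 1.71, 2.38 and 2.21 in young libraries 1 to 5 and 1.80, 1.49, 0.46, 1.70 and 3.05 in aged libraries 1 to 5. Aged 3 was the lowest and aged 5 the highest of all libraries, so that the 2 outer values of the aged group lay on either side of the young range. The means of 2.15 ± 0.34 (SD, n = 5) and 1.70 ± 0.92 (SD, n = 5) differed by -0.45 (SE 0.404, 95% interval -1.35 to 0.44, unadjusted limma p 0.286). Without aged 5 the difference was -0.79 (SE 0.303, unadjusted limma p 0.0278, adjusted 0.959), and without aged 3 it was -0.14. With aged 5 and both libraries numbered 3 left out, Slc40a1 joined Tfrc in having all aged libraries, 1.49 to 1.80, below all young ones, 1.93 to 2.54, as were 1.31% of all transcripts with the 4 young and 3 aged libraries left.

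Heph (chromosome X, 96455359 to 96574485, plus strand), a membrane ferroxidase, had all 5 of its transcripts listed at 0 in every library and was not tested. Its relative ceruloplasmin (Cp), a ferroxidase found in serum and on cell membranes, was detected. Cp is taken up with the other iron genes.

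The iron sensors were low and close in level. Aco1 (chromosome 4, 40143081 to 40198338, plus strand), which is a cytosolic aconitase when it holds an iron-sulfur cluster and IRP1 when it does not, had 1.94, 1.98, 1.73, 2.00 and 1.84 in young libraries 1 to 5 and 1.59, 1.95, 1.37, 1.90 and 1.58 in aged libraries 1 to 5. It was lower in the aged library of all 5 pairs, but the groups overlapped. The difference from 1.90 ± 0.11 to 1.68 ± 0.24 (SD, n = 5 each) was -0.22 (SE 0.157, 95% interval -0.57 to 0.13, unadjusted limma p 0.192), and -0.14 without aged 3. Its 4 transcripts had differences of -0.44 to -0.17.

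Ireb2 (chromosome 9, 54863789 to 54912530, plus strand), encoding IRP2, which is degraded when iron is plentiful, ranged from 1.10 to 2.03 in young and from 0.70 to 2.07 in aged libraries. The lowest value in each group came from the library numbered 3. The difference of -0.06 (SE 0.287, 95% interval -0.69 to 0.58, unadjusted limma p 0.852) became 0.03 (SE 0.135) without those libraries, and its sign is therefore not fixed.

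**Figure D3:**
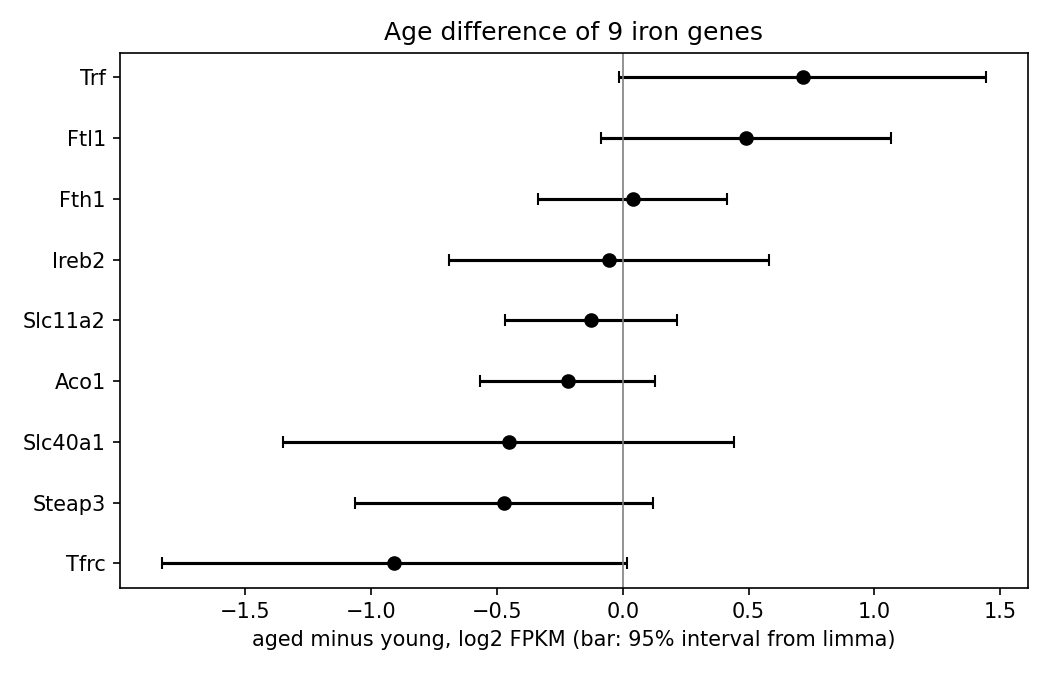
Difference between aged and young mean log2 FPKM (x axis) for each of the 9 detected iron genes (y axis), with the 95% interval from limma as a bar. All 9 intervals include 0, those of Tfrc (-1.83 to 0.02) and Trf (-0.02 to 1.45) only just.

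Ratios within a library do not depend on how that library was scaled, and 3 were compared. The log2 ratio of Tfrc to Fth1, uptake against storage, was -6.28, -6.45, -6.66, -6.20 and -6.17 in young libraries 1 to 5 and -6.82, -6.81, -6.74, -7.17 and -8.98 in aged libraries 1 to 5. No aged value reached the lowest young one, although young 3 and aged 3 were only 0.08 apart. Put as folds, Fth1 was 81.8-fold above Tfrc in young and 158-fold in aged muscle by geometric means. The difference of -0.95 between -6.35 ± 0.20 and -7.30 ± 0.95 (SD, n = 5 each) had a two-sided exact permutation p of 0.00794, adjusted to 0.0238 over the 3 ratios. Without aged 5 the difference was -0.53 (adjusted exact permutation p 0.0476), and the adjusted p was 0.0952 to 0.143 without any 1 of the young libraries, 0.127 with transcripts summed and 0.0952 with the longest coding transcripts. As a paired comparison over the 5 numbers the exact sign-change p took the smallest value that 5 pairs allow, which is above 0.05, so that this comparison could not pass. The ratio rests on the same Tfrc values and, like them, is not independent evidence.

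The log2 ratio of the heavy to the light ferritin subunit, Fth1 to Ftl1, was 3.74, 3.36, 3.74, 3.70 and 4.04 in young libraries 1 to 5 and 3.49, 3.80, 2.76, 3.10 and 3.19 in aged libraries 1 to 5. It was lower in the aged library of 4 of 5 pairs, with young 2 and aged 2 running against the rest. The difference of -0.45 between 3.72 ± 0.24 and 3.27 ± 0.39 (SD, n = 5 each) had an exact permutation p of 0.0714, or 0.107 adjusted. Without aged 2 it was -0.58, with an adjusted exact permutation p of 0.0357. The ratio of Aco1 to Ireb2 was 0.19 ± 0.27 in young and 0.02 ± 0.46 in aged muscle (SD, n = 5 each), a difference of -0.16 with an exact permutation p of 0.5.

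**Figure D4:**
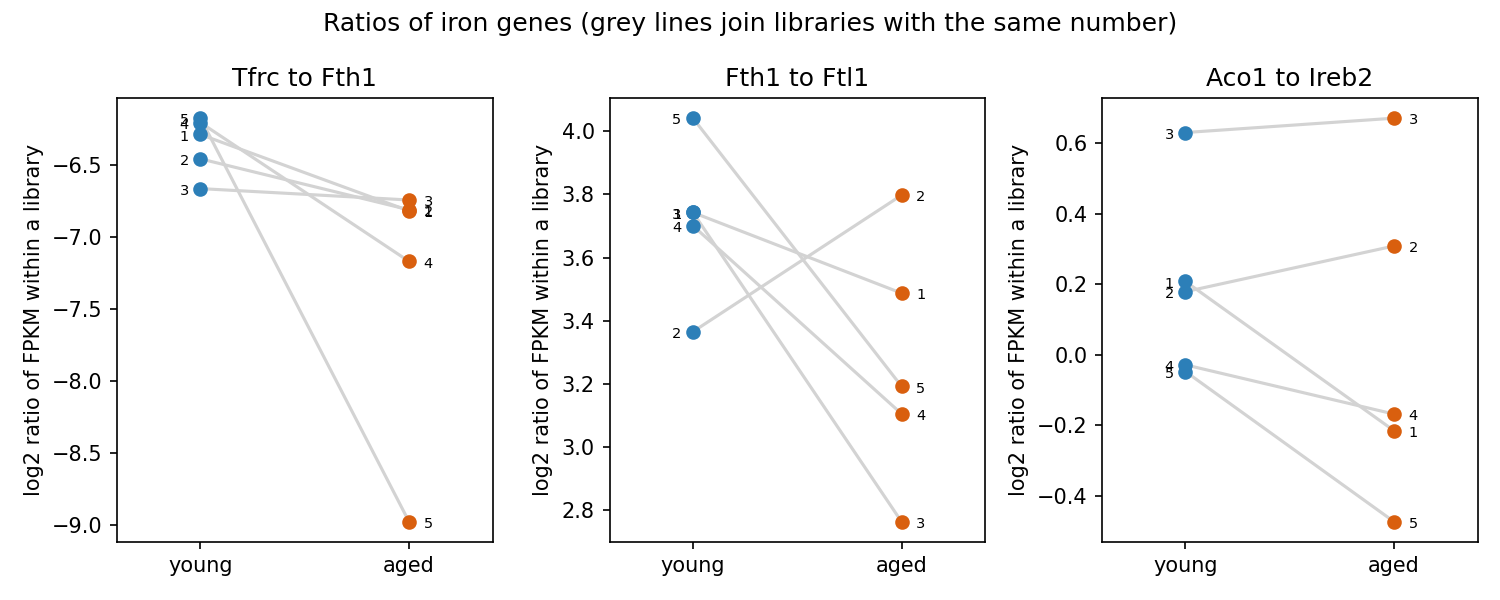
Log2 ratio of FPKM within each library (y axis) for Tfrc to Fth1, Fth1 to Ftl1 and Aco1 to Ireb2, with points for 5 young and 5 aged libraries and grey lines joining those of the same number. The Tfrc to Fth1 ratio is at most -6.74 in the aged and at least -6.66 in the young libraries, while the other ratios overlap.

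The profile of Tfrc over the 10 libraries was compared with that of 8215 genes above 0 in all of them, after scaling each to a mean of 0 and an SD of 1. The nearest were Slc41a3, with a mean absolute difference of 0.12, Gm16537 (0.177), Amd1 (0.178), Frat2 (0.185) and Ptpla (0.200). All 5 were lowest in aged 5 and had a lower mean in aged muscle, as their choice for likeness to Tfrc in these libraries brings with it. Amd1, which makes a precursor of the polyamines spermidine and spermine, had 9.24 to 9.67 in the young libraries, 8.85 to 9.18 in aged 1 to 4 and 6.93 in aged 5. Among the iron genes Steap3 was nearest to Tfrc, at 0.498, and the other 7 were at 0.907 to 1.18.

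Other genes of iron handling were read from 4 lists. Of 55 genes tested, 2 had an unadjusted limma p under 0.05 with aged higher and 0 with aged lower. Beside these stand 3.89% and 0.738% of all transcripts. With 1 transcript a gene, the unit of these lists, the shares were 6.75% and 0.984%. Of 23 genes of uptake and systemic control, 14 were tested and 8 were listed at 0 in every library, among them the liver hormone Hamp and the receptor Tfr2. The median difference of that list was 0.005 beside 0.03 over all transcripts, and 1 of the 2 genes, Cp, belonged to it. Cp was at 1.12, 0.78, 1.29, 1.06 and 0.65 in young libraries 1 to 5 and 1.99, 2.14, 1.28, 2.63 and 2.25 in aged libraries 1 to 5. All aged libraries but aged 3 were above every young one, and the difference of 1.08 (SE 0.249, 95% interval 0.53 to 1.63) had an unadjusted limma p of 0.00136 and an adjusted p of 0.583. The highest levels of the list belonged to Hfe2 (hemojuvelin, a muscle-rich co-receptor in iron sensing), at 8.05 ± 0.07 in young and 7.94 ± 0.30 in aged muscle, and to the iron chaperone Pcbp1, at 5.73 ± 0.23 and 6.00 ± 0.17 (SD, n = 5 each).

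Of 18 genes of heme synthesis and breakdown, 15 were tested, with a median difference of -0.02. The other of the 2 genes was Pgrmc1, a heme-binding membrane protein, with 1.75, 2.27, 2.14, 2.06 and 1.90 in young libraries 1 to 5 and 2.74, 2.44, 2.45, 2.35 and 2.89 in aged libraries 1 to 5. Every aged library was above every young one, as in 1.25% of all transcripts and in 0 of the 9 genes of uptake, storage and export. The difference was 0.55 (SE 0.167, 95% interval 0.18 to 0.92), with a limma p of 0.00791 unadjusted and 0.918 adjusted. Alas1, the first enzyme of heme synthesis, was at 5.31 ± 0.40 and 5.28 ± 0.59, and Fech, the last, at 5.17 ± 0.34 and 5.11 ± 0.67 (SD, n = 5 each).

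Iron-sulfur cluster assembly had 21 of 22 genes tested and mitochondrial iron 5 of 6, with 0 unadjusted limma p under 0.05 in either and medians of 0.01 and 0.03. With libraries paired by number, 1 of the 21 passed that threshold, Iba57, a cluster assembly factor, higher by 0.41 (SE 0.147, limma p 0.0270 unadjusted and 0.574 adjusted), so that the 4 lists had 3 of 55 aged higher where 6.78% of all transcripts were. Iba57, which is named here after its values were seen, had an unpaired limma p of 0.0665 unadjusted. The scaffold Iscu was at 7.01 ± 0.20 in young and 7.16 ± 0.14 in aged muscle, and the chaperone Hspa9 at 7.00 ± 0.14 and 7.09 ± 0.25 (SD, n = 5 each). The mitochondrial membrane proteins Tmem14c and Slc25a28 (mitoferrin 2) led the last list, at 4.91 ± 0.20 and 3.67 ± 0.37 in young against 4.87 ± 0.36 and 3.95 ± 0.41 in aged muscle. Mitochondrial ferritin, Ftmt, was listed at 0 in every library.

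**Figure D5:**
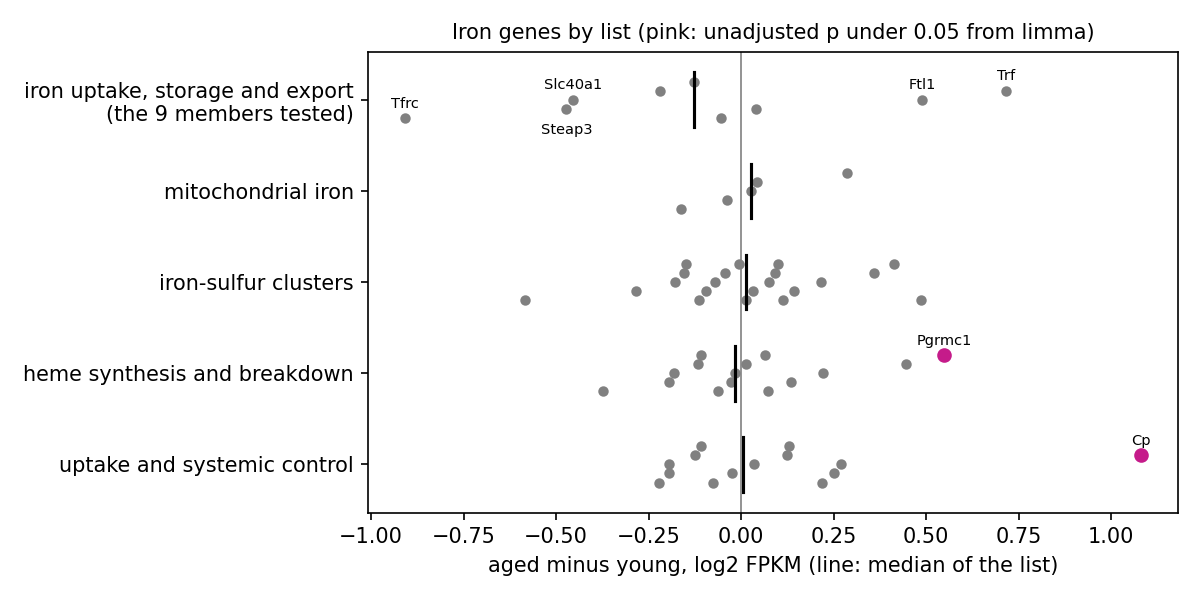
Difference between aged and young mean log2 FPKM (x axis) for each tested gene of 4 iron lists and of the 9 genes of uptake, storage and export (rows), with the median of each list as a black line and genes with an unadjusted limma p under 0.05 in pink. Cp and Pgrmc1 are the only pink points, and the 5 medians lie between -0.13 and 0.03.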

How the data were processed

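Poly-A RNA of gastrocnemius muscle was sequenced in paired-end reads, and the authors mapped them to mm10 with TopHat2 and deposited log2 FPKM for each transcript and library, with any FPKM up to 1 listed as 0. The program that computed FPKM is not given in the sources used here, and the kit does not mark strand. Columns were matched to samples by age and number, and the iron genes and all lists were chosen with earlier results of these data known.

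limma 3.58.1 (lmFit and eBayes, R 4.3.3) was run without covariates on 38059 transcripts, those whose mean FPKM reached 1. The p-values were adjusted over all of them (Benjamini-Hochberg). A run on simulated data planted differences larger than that of any iron gene, and says nothing of how often smaller ones are found. Exact permutation tests (two-sided) served for the ratios. No pseudocount was used. The genes named were the 10 iron genes, in each other iron list those with an unadjusted p under 0.05 and the 2 with the highest mean, and the 5 genes with the profile most like that of Tfrc. Markers of 7 cell types were summed by library. Some single genes are not reported here. Deposited values were turned into reads through the steps between them, for description alone.

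The labels number the libraries 1 to 5 in both groups and do not say what a number means. Deviations of same-numbered libraries from their group means correlated at 0.131, 0.332, 0.695, 0.390 and 0.208 over the transcripts tested, all above 0.1, against a mean of -0.04 in other combinations. The pairing was therefore taken from the data, and 3 of 5 young libraries correlated best with their own number. Each library is 1 mouse. Scaling, filters, pseudocounts, array weights, the pairing, transcript choice and leaving out libraries were tried as alternatives.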

Additional observations from a re-analysis of the deposited data

How the results depend on the processing

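Over 24 settings, 204 of 211 values for single iron genes kept their direction. The sign of Fth1 turned under median-of-ratios scaling (-0.00051), without young 5 (-0.016) and without aged 3 (-0.0091, with 1 library left out, -0.016 to 0.16), that of Ireb2 without young 4 (0.026), without aged 3 (0.18) and without both libraries numbered 3 (0.031), with -0.21 to 0.18 when 1 library was left out, and that of Slc11a2 without aged 5 and both libraries numbered 3 (0.0064). Tfrc stayed lower in all 24 settings, at -1.10 to -0.45, and Trf higher, at 0.52 to 0.95. The smallest Benjamini-Hochberg adjusted limma p over the settings was 0.252 for Tfrc, 0.0442 for Trf, 0.0649 for Slc40a1 and 0.524 for Steap3.

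The count of iron genes with every aged library below every young one was 0 under quantile normalization and median-of-ratios scaling, beside 0.665% and 0.681% of all transcripts, and 2 without aged 5 and both libraries numbered 3, where 1.31% of all transcripts did the same. limma array weights gave the 1 adjusted p under 0.05, for Trf (0.95, adjusted p 0.0442), in a fit where 1878 of 38059 transcripts had one, against 3 without the weights. Unadjusted, 1 of 9 iron genes was higher with 1 transcript a gene (beside 6.75% of all transcripts), array weights (19.8%), the pairing (6.78%), without both libraries numbered 3 (11.5%), without these and aged 5 (11.9%), and with the longest coding transcript (3.89%), and 0 to 1 with 1 library left out (2.29% to 10.7%). The number lower was 1 of 9 with 1 transcript a gene (0.984%), a pseudocount of 1 (0.662%), array weights (2.21%), without both libraries numbered 3 (1.1%) and with the longest coding transcript (0.738%), 2 with the pairing (1.4%) and without aged 5 and both libraries numbered 3 (0.943%), and 0 to 2 with 1 library left out (0.373% to 0.998%).

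The ratio of Tfrc to Fth1 missed an adjusted exact permutation p of 0.05 with transcripts summed (-1.07) and with the longest coding transcript (-0.96). It also missed when paired by replicate number (-0.95), without both libraries numbered 3 (-1.17) and without these and aged 5 (-0.65), but there it had the smallest p that the permutations allow, so these say nothing of its stability. With 1 library left out it was between -1.09 and -0.53, and it missed without any 1 of the young libraries. Fth1 to Ftl1 passed without aged 2 (-0.58), the lower end of its range of -0.58 to -0.32 with 1 library left out. The pairing also brought Iba57 under an unadjusted limma p of 0.05 among the other iron genes (3 of 55 in place of 2). Among the 9 iron genes it brought Trf, Tfrc and Steap3 under that threshold. Over all transcripts, the number with an adjusted limma p under 0.05 went from 3 to 0. The cause of the other changes was not tested. The longest coding transcript, and the ratio without aged 5 and both libraries numbered 3, were chosen after seeing the data. Values of 0 hide any change below an FPKM of 1, and this limits Heph, the 5′ transcripts and the genes at 0.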
